A study of Mus musculus with 6 samples.

Results

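The ribosomal P-stalk genes Rplp0, Rplp1 and Rplp2 were examined in purified red blood cells of BalB/c mice. All 3 were found by symbol among the 27179 genes of each count file. The mutant animals carried the C587R missense allele on 1 copy of Nxf1 (Nxf1+/C587R, 3 males), and the controls were 3 wild-type littermates (Nxf1+/+), whose sex is not spelled out. Each library came from 1 animal, and the labels give no age. The batch numbers used here equal the replicate numbers, and the labels state no design beyond genotype. Each of the 3 batch numbers thus joins 1 mutant and 1 wild-type library, without evidence that they were handled together. Nxf1 encodes the main nuclear export receptor for messenger RNA. The P-stalk genes were singled out because they had been among the genes higher in the mutants in these same libraries. Their mutant to wild-type difference is therefore given as a description, without a p-value.

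The P-stalk is a flexible protrusion of the large ribosomal subunit. P0, encoded by Rplp0, is its base and binds the ribosomal RNA, and dimers of P1 and P2, the acidic proteins encoded by Rplp1 and Rplp2, attach to it. The stalk recruits the GTPases that drive initiation, elongation and termination. Like other ribosomal protein messages, the 3 transcripts belong to the class that begins with a 5′ terminal oligopyrimidine tract. A maturing red cell loses its nucleus and then its ribosomes, so the messages of circulating cells are those that remain after transcription has ended.

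All 3 P-stalk proteins end in a common acidic tail, the part that contacts the translational GTPases. The last 60 coding bases before the stop codon are shown because they are the feature that the 3 transcripts have in common, as given by GENCODE M21 on mm10. Capitals mark the 39 bases that are the same in all 3.
Rplp0: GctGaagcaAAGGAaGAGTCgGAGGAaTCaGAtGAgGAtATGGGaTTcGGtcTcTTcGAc
Rplp1: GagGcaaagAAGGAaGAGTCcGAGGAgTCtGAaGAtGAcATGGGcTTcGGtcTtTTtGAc
Rplp2: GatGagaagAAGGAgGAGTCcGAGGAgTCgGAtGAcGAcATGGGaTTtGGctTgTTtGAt
The stretch lies at chr5:115563382-115563441 (plus strand) for Rplp0, at chr9:61913327-61913386 (minus strand) for Rplp1 and at chr7:141451246-141451305 (plus strand) for Rplp2. Rplp1 and Rplp2 shared 47 of the 60 bases, Rplp0 and Rplp1 shared 45, and Rplp0 and Rplp2 shared 43. The coding regions have 317 codons in Rplp0, 114 in Rplp1 and 115 in Rplp2.

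The sequence before the annotated start was compared for Rplp0 and Rplp2, whose promoters RefSeq gives on GRCm38.p6. Each line below holds 100 bases before the start and the first 10 bases of the gene. Capitals mark CCAAT (either strand) and any run of at least 8 C or T that covers the first base.
Rplp0: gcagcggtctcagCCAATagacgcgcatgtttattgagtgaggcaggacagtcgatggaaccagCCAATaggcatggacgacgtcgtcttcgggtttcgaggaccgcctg
Rplp2: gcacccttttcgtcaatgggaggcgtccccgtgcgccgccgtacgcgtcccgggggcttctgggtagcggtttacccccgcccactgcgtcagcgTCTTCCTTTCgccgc
The Rplp0 window (chr5:115559367-115559476, plus strand) held 2 copies of CCAAT and no pyrimidine run over its annotated first base. The tract of the class named above was thus not seen at that base. Whether the transcript begins there was not tested. The Rplp2 window (chr7:141447551-141447660, plus strand) held none and had a run of 10 pyrimidines over its first base. CCAAT was present in 19.9% of all 32851 listed promoter windows of that length and in 17.6% of the 68 windows of ribosomal protein genes. A run of at least 8 pyrimidines over the first base was present in 3.86% of all windows and in 26.5% of those of ribosomal protein genes. The 2 promoters thus shared neither of these features.

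Each library had 14636739 to 15790336 counts, of which globin genes took 88.1% to 89.2%. Genes of erythroid identity, globins included, summed to 13488500 to 14068738 counts in mutant mice, against 13577704 to 14478998 in wild-type mice. Nxf1 itself had 9, 7 and 11 counts in mutant mice, against 15, 10 and 20 in wild-type mice, a log2 fold change of −0.21 (SE 0.38, edgeR adjusted p = 0.850). Transcripts best known from the liver were present in the mutant libraries, with a summed count of 1945 to 4250 in mutant mice, against 63 to 195 in wild-type mice for the hepatocyte list. Wild-type library 1 alone carried exocrine pancreas transcripts (395 counts for the list, and at most 3 in each of the other libraries).

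Rplp0 (Entrez gene 11837) lies on chromosome 5, 115559467 to 115563729, and its principal transcript has 7 exons. It had 1437, 1323 and 1403 counts in mutant mice, against 1250, 1100 and 1214 in wild-type mice. Every mutant library was above every wild-type library already in the raw counts, and the lowest mutant count lay close to the highest wild-type count. In bulk RNA a change in the number of cells of a type and a change in message per cell cannot be told apart. As CPM (counts divided by the library total and put on a fixed scale), the levels were 94.7, 86.8 and 95.9 in mutant mice, against 80.7, 74.8 and 76.9 in wild-type mice.

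Rplp1 (Entrez gene 56040) lies on chromosome 9, 61913283 to 61914510, with 3 exons. It had 1455, 1317 and 1350 counts in mutant mice, against 1248, 1026 and 1106 in wild-type mice. Its CPM of total counts were 95.9, 86.4 and 92.2 in mutant mice, against 80.5, 69.7 and 70.0 in wild-type mice. Wild-type library 1 was the highest of its group, and the groups did not overlap.

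Rplp2 (Entrez gene 67186) lies on chromosome 7, 141447651 to 141451359, with 5 exons in the principal transcript, and holds the small nucleolar RNA gene Snora52 (141448803 to 141448939, same strand). It had 185, 172 and 178 counts in mutant mice, against 155, 141 and 147 in wild-type mice. The CPM of total counts were 12.2, 11.3 and 12.2 in mutant mice, against 10.003, 9.58 and 9.31 in wild-type mice. Again no wild-type library reached a mutant one. The counts of Rplp2 are few enough for counting error to matter: the observed coefficient of variation was 4.36% in mutant mice, where counting alone would give 7.49%, and 3.63% in wild-type mice, where it would give 8.23%.

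The size of the difference depended on the scaling. TMM (trimmed mean of M-values) sets a factor per library on the assumption that most genes do not change. These factors were 0.720, 0.780 and 1.06 in mutant mice, against 1.23, 1.11 and 1.23 in wild-type mice. With TMM, Rplp0 had 132, 111 and 90.6 CPM in mutant mice, against 65.7, 67.1 and 62.5 in wild-type mice. It averaged 111 ± 20.5 CPM in mutant mice, against 65.1 ± 2.33 CPM in wild-type mice (SD, n = 3 each), a log2 fold change of 0.77 (SE 0.16). Rplp1 had 133, 111 and 87.1 CPM in mutant mice, against 65.5, 62.6 and 57.0 in wild-type mice, so the groups stood apart as for Rplp0. It averaged 110 ± 23.1 CPM in mutant mice, against 61.7 ± 4.35 CPM in wild-type mice (log2 0.84, SE 0.17). Rplp2, the least abundant, had 16.9, 14.5 and 11.5 CPM in mutant mice, against 8.14, 8.60 and 7.57 in wild-type mice. Its means were 14.3 ± 2.73 CPM in mutant mice, against 8.11 ± 0.515 CPM in wild-type mice (log2 0.81, SE 0.19). On this scale the mutant libraries spread widely, with library 1 highest and library 3 lowest for each gene, in the inverse order of their TMM factors.

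With plain library totals the same 3 genes were 1.19-, 1.25- and 1.23-fold higher in the mutants, in the order Rplp0, Rplp1, Rplp2. The log2 fold changes were 0.26 (SE 0.13), 0.32 (SE 0.13) and 0.30 (SE 0.20). Rplp0 averaged 92.4 ± 4.95 CPM of total counts in mutant mice, against 77.4 ± 2.99 in wild-type mice, Rplp1 91.5 ± 4.80 and 73.4 ± 6.15, and Rplp2 11.9 ± 0.518 and 9.63 ± 0.349 (SD, n = 3 each, mutants before wild type). The mutant spread was smaller on this scale than with TMM for all 3 genes. With the totals of non-globin genes in place of all counts, a scaling chosen after the data had been seen, the log2 fold changes were 0.32, 0.38 and 0.37. The median of all genes tested was −0.06 with TMM, −0.53 with total counts and −0.47 with non-globin totals. Set against that median, the 3 genes lay about as far above the typical gene under each scaling. This follows from the arithmetic, since a scaling factor moves all genes of a library alike.

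**Figure D1:**
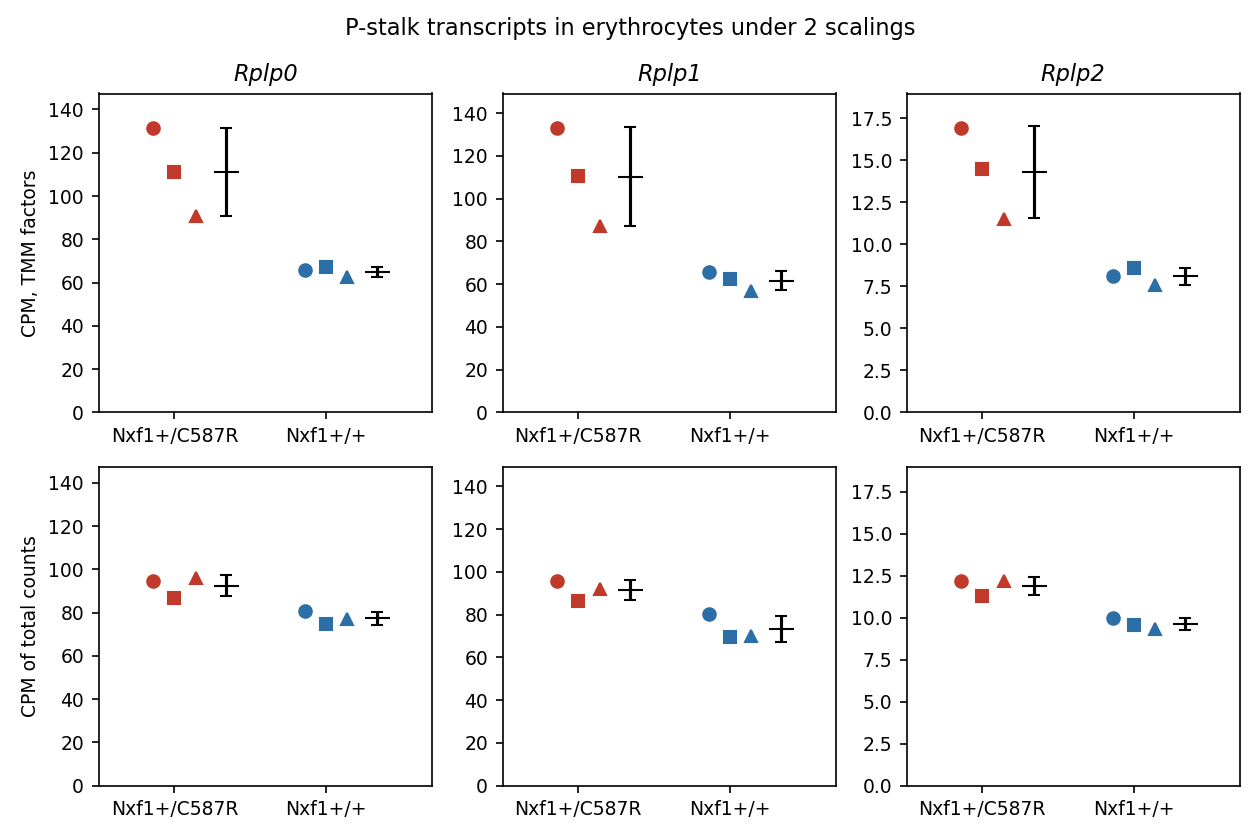
CPM of Rplp0, Rplp1 and Rplp2 per library, with TMM factors (upper row) and as a share of total counts (lower row), mutants in red and wild type in blue. Circles, squares and triangles are batches 1, 2 and 3, and black bars are the mean and SD of 3 libraries. The groups are apart in all 6 panels, and for Rplp0 the means are 111 and 65.1 CPM with TMM but 92.4 and 77.4 CPM of total counts.

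The direction was the same within each batch, as it would be for any pairing, since no mutant library overlapped a wild-type one. The sizes within batches are given as a description. The log2 difference between the mutant and the wild-type library of batches 1, 2 and 3 was 1.00, 0.73 and 0.53 for Rplp0 with TMM, and 0.23, 0.21 and 0.32 with total counts. For Rplp1 it was 1.02, 0.82 and 0.61 with TMM, and 0.25, 0.31 and 0.40 with total counts. For Rplp2 it was 1.06, 0.75 and 0.60 with TMM, and 0.29, 0.24 and 0.39 with total counts. Batch 1 therefore had the largest difference with TMM and batch 3 the largest with total counts, for every one of the 3 genes.

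At an adjusted p under 0.05 (edgeR quasi-likelihood test), 3 of the 3 P-stalk genes were called higher with TMM, where 5.99% of the 2823 genes tested were called higher. With total counts 0 of the 3 were called, where 4.07% of genes were called higher, and with non-globin totals also 0 of 3, where the share was 4.08%. For each of the 3 genes, under each of these scalings, no mutant library overlapped the wild-type ones. The background share of genes with every mutant library above every wild-type library was 12.3% with TMM, 5.31% with total counts and 5.79% with non-globin totals. Since the genes were chosen from this contrast, these counts describe them and say nothing further. The count of 3 fell to 1 without mutant library 1 (log2 0.70, 0.75 and 0.75 for Rplp0, Rplp1 and Rplp2) and to 1 without wild-type library 3 (0.75, 0.79 and 0.77), Rplp1 being the gene still called. It fell to 2 without mutant library 2, where Rplp2 was not called (log2 0.86).

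The proportions of the 3 transcripts to each other, which need no scaling factor, varied little between libraries. The ratio of Rplp0 to Rplp1 counts was 1.01 ± 0.0263 in mutant mice, against 1.06 ± 0.0497 in wild-type mice (SD, n = 3 each). That of Rplp2 to Rplp1 was 0.130 ± 0.00244 in mutant mice, against 0.132 ± 0.00672 in wild-type mice. Over the 6 libraries the coefficient of variation was 4.24% for the first ratio and 3.53% for the second. A chi-square statistic for the 3 genes by 6 libraries was 5.81 on 10 degrees of freedom, so the mix of the 3 transcripts varied by no more than counting error alone would give.

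Levels per length separated the 3 genes, a property that played no part in choosing them. With the gene lengths in the files (1360 bases for Rplp0, 468 for Rplp1 and 441 for Rplp2), Rplp1 had 196 ± 10.3 CPM per kilobase in mutant mice, against 157 ± 13.1 in wild-type mice (SD, n = 3 each). Rplp0 had 68.0 ± 3.64 in mutant mice, against 56.9 ± 2.20 in wild-type mice, and Rplp2 had 26.9 ± 1.17 and 21.8 ± 0.792, mutants before wild type. Within a library, Rplp1 was 6.86 to 7.59 times as high as Rplp2 per length (mean log2 difference 2.85 ± 0.0510, SD, n = 6). It was 2.65 to 2.94 times as high as Rplp0, and Rplp0 was 2.49 to 2.68 times as high as Rplp2. Each of these 3 orders held in 6 of 6 libraries. An exact two-sided sign-flip permutation test over the 6 libraries gave each pair p = 0.03125, the smallest value possible (adjusted p = 0.03125 over the 3 pairs). The test covers only whether the order repeats between libraries. It cannot tell an order of transcript levels from a bias common to all libraries. P1 and P2, the products of the genes at either end of this order, pair with each other on the ribosome.

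Reads from near-identical copies bear on those levels, and the way they were assigned is not given in the sources used here. Of the 50-base windows of the principal transcript, 41.8% were also found in a transcript of another GENCODE gene for Rplp0, 60% for Rplp1 and 65.1% for Rplp2. The number of such other genes was 7 for Rplp0, 5 for Rplp1 and 2 for Rplp2. The part of such copies in the levels was not tested.

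Among cytosolic ribosomal protein genes the P-stalk transcripts were among the most abundant. Of the 79 listed genes, 21 had under 10 counts over the 6 libraries, and the median was 34. Rpl41, which encodes a very short basic peptide of the large subunit, took 60.5% of all ribosomal protein counts, and the 3 P-stalk genes took 21.6%. By counts, Rplp0 (7727) had rank 2 and Rplp1 (7502) rank 3 after Rpl41 (45476), and Rplp2 (978) had rank 9. Among all 27179 genes Rplp0 ranked 87, Rplp1 88 and Rplp2 284 by counts.

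Per length, Rpl41 had rank 1 among ribosomal protein genes, Rplp1 rank 2, Rplp0 rank 3, Rps9 rank 5 and Rplp2 rank 6. Rpl41 had 1149 ± 131 CPM per kilobase in mutant mice, against 1078 ± 150 in wild-type mice (SD, n = 3 each). Rplp1 and Rplp0, given above, lay between Rpl41 and Rps9. Rps9, a small-subunit gene, had 27.5 ± 4.28 in mutant mice, against 29.7 ± 2.74 in wild-type mice. Rps9 and Rplp2 did not differ beyond their spread in the mutants, and in wild type Rps9 was the higher in all 3 libraries. The 47 genes that did not pass the filter on low counts had 0 to 55 counts over all libraries. The median share of 50-base windows found in another gene was 74.3% for these 47 genes and 39.0% for the other 29 that passed. Whether the low counts follow from this was not tested.

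**Figure D2:**
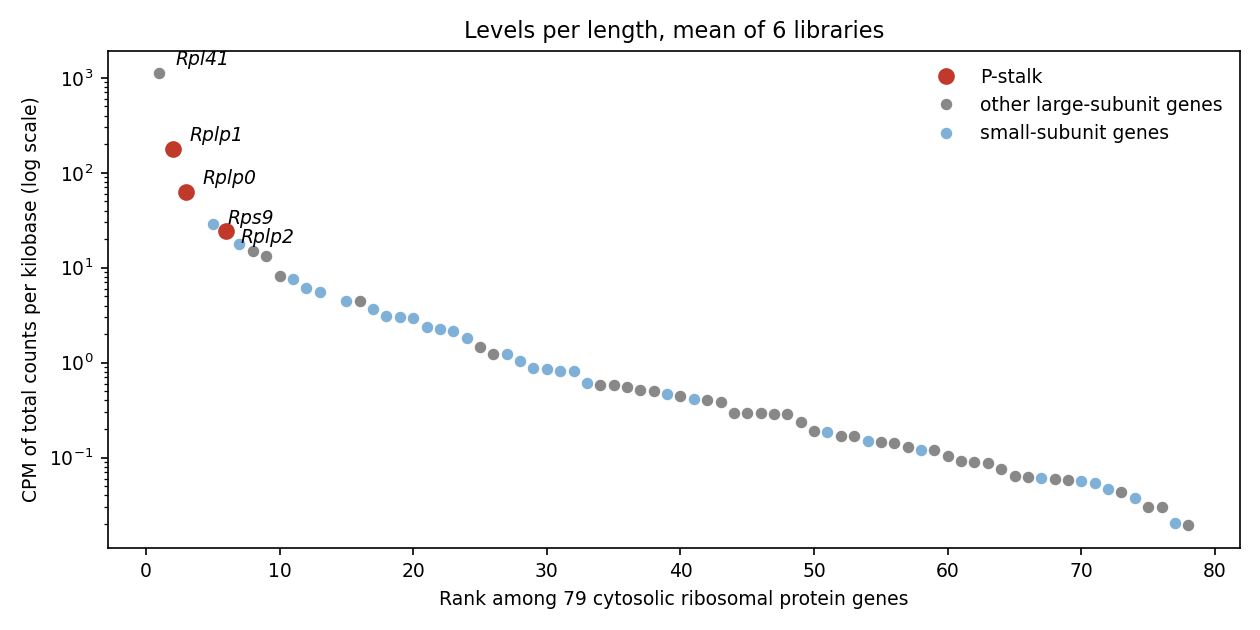
Mean CPM of total counts per kilobase over the 6 libraries (log scale) for the cytosolic ribosomal protein genes, ordered by rank. Of the 79 genes 76 are drawn. The P-stalk genes (red) hold ranks 2, 3 and 6 of 79, with Rpl41 alone above Rplp1.

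The P-stalk share of ribosomal protein counts was 23.2% ± 0.842 in mutant mice, against 19.9% ± 0.510 in wild-type mice (SD, n = 3 each). Single mutant libraries had 22.3%, 23.9% and 23.4%, and wild-type libraries had 19.8%, 19.5% and 20.5%. The 95% Wilson intervals, which cover counting error only and not the spread between animals, were 21.6 to 23.0 for the lowest mutant share and 19.8 to 21.2 for the highest wild-type share. The numerator was chosen from this contrast, so the separation of the shares is a description and follows in part from that choice. It was 3.26 points, and 2.48, 4.41 and 2.89 points within batches 1, 2 and 3. Against Rpl41 alone, the largest part of the denominator, the groups overlapped. The ratio of P-stalk to Rpl41 counts was 0.351, 0.400 and 0.393 in mutant mice, against 0.313, 0.314 and 0.378 in wild-type mice. Without Rpl41 in the denominator, an alternative chosen after the data had been seen, the P-stalk made up 59.3% ± 1.64 in mutant mice, against 50.1% ± 4.76 in wild-type mice. Wild-type library 3 had the lowest such share, 44.8%, and the largest sum of other ribosomal protein counts without Rpl41, 3043 against 1920 to 2266 in the other libraries.

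**Figure D3:**
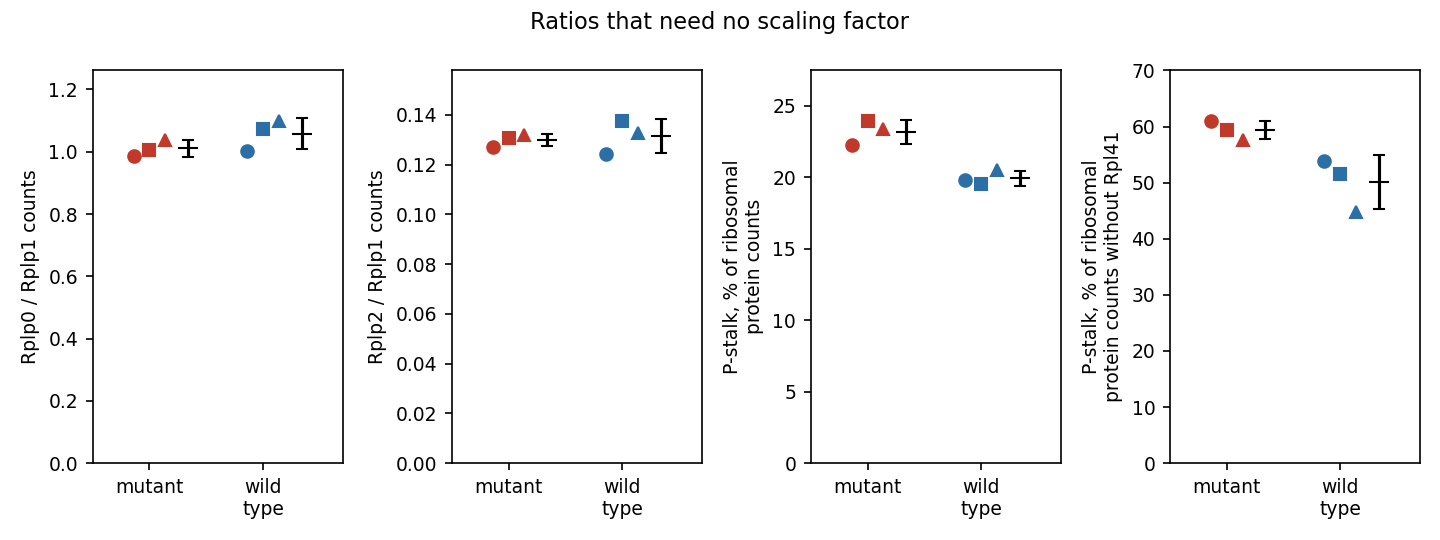
Count ratios of Rplp0 and Rplp2 to Rplp1, and the P-stalk share of ribosomal protein counts with and without Rpl41, per library (mutants red, wild type blue, markers for batches 1, 2 and 3 as circle, square and triangle, black bars mean and SD). Both ratios overlap between groups. The mean shares, whose numerator was chosen from this contrast, are 23.2% and 19.9% with Rpl41.

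Calls and medians of the other ribosomal protein genes are set beside those of all genes. Of the 76 others 29 were tested, and with TMM 2 were called higher and 0 lower, where 5.99% of all genes were called higher and 1.06% lower. Their median log2 fold change was 0.17, beside −0.06 for all genes, and 18 were positive. With total counts the median was −0.33, beside −0.53 for all genes, 22 were negative, and 0 were called higher and 1 lower, where 8.68% of genes were called lower. With non-globin totals 0 were called higher and 1 lower, where the share of all genes called lower was 6.46%. In the large subunit the median of 9 tested genes was 0.33 with TMM and −0.16 with total counts. In the small subunit the median of 20 was 0.11 with TMM and −0.39 with total counts. The direction of both medians thus flipped with the scaling, whereas Rplp0, Rplp1 and Rplp2, chosen from this contrast, stayed above 0. This was not particular to them, since 7 of the 29 other genes tested were also above 0 with total counts.

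Among the 32 ribosomal protein genes tested, Rplp1 had rank 3, Rplp2 rank 4 and Rplp0 rank 6 by log2 fold change, under TMM and under total counts. Rps21, a small-subunit gene, stood between Rplp2 and Rplp0 at rank 5 and was not called with TMM (log2 0.79, SE 0.34, edgeR adjusted p = 0.212) or with total counts (log2 0.27, adjusted p = 0.568).

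Rpl41 and Rps9, among the other ribosomal protein genes with most counts, were not called. Rpl41 had 8766, 7023 and 7451 counts in mutant mice, against 8487, 7224 and 6525 in wild-type mice, with a log2 fold change of 0.62 with TMM (edgeR adjusted p = 0.0566) and 0.09 with total counts (adjusted p = 0.572). Rps9 had 0.40 with TMM and −0.11 with total counts (adjusted p = 0.251 and 0.660). Rps3, a small-subunit gene at the entry of the messenger channel, had 40, 26 and 42 counts in mutant mice, against 60, 64 and 136 in wild-type mice. It fell by 1.22 on the log2 scale with total counts (edgeR adjusted p = 0.0340) and was not called with TMM (log2 −0.72, adjusted p = 0.201, and −0.31 without wild-type library 3). Wild-type library 3 was also high for Rpl8, with 97, 81 and 131 counts in mutant mice, against 126, 175 and 446 in wild-type mice.

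**Figure D4:**
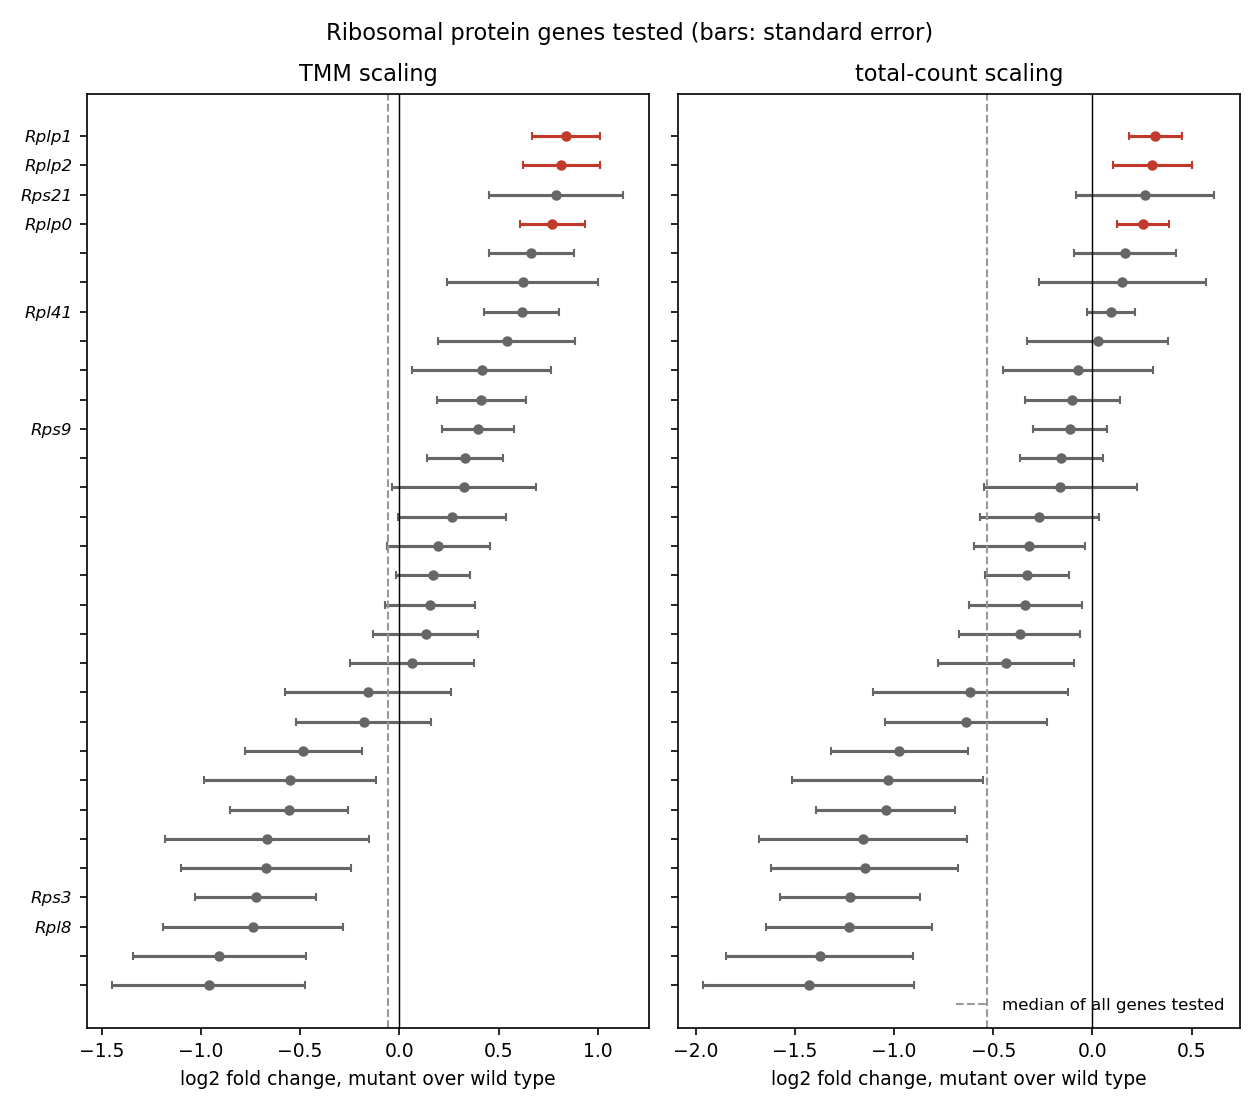
Log2 fold change, mutant over wild type, with its standard error for 30 of the 32 ribosomal protein genes tested, with TMM (left), those named in the text labelled, and with total counts (right). Solid lines mark 0 and dashed lines the median of all genes tested, −0.06 and −0.53. The P-stalk genes (red) lie between 0.77 and 0.84 on the left and between 0.26 and 0.32 on the right.

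Proteins that work with the P-stalk were mostly too low to test. Of 21 genes for its assembly, neighbours and partners, 4 were tested with TMM and 0 were called. Of all genes, 5.99% were called higher and 1.06% lower with TMM. The median log2 fold change of the 4 was 0.01, beside −0.06 for all genes. Mrto4, the P0-like factor that holds the place of P0 during subunit assembly, had 6 counts in all, and Dusp12, which in yeast releases that factor, had 4. Rpl12, the neighbour of P0 at the stalk base, had 17. Eef2, the translocation factor that the stalk recruits, had 343, 372 and 447 counts in mutant mice, against 461, 402 and 493 in wild-type mice. Its log2 fold change was 0.30 with TMM and −0.19 with total counts (edgeR adjusted p = 0.335 and 0.429). Eef1a1, which delivers aminoacyl-tRNA, had −0.27 with TMM (edgeR adjusted p = 0.499) and −0.77 with total counts (adjusted p = 0.0309). With total counts the median of all genes was −0.53, and 8.68% of them were called lower.

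Of 22 other messages of the 5′ oligopyrimidine class, 14 were tested. With TMM 1 was higher and 0 lower, where 5.99% of all genes were called higher and 1.06% lower. The median log2 fold change was −0.10, beside −0.06 for all genes. With total counts 0 were higher and 2 lower, where 4.07% of all genes were called higher and 8.68% lower. The median was −0.58, beside −0.53 for all genes. The higher one was Tpt1, a growth-related protein translated from such a message, which had a log2 fold change of 0.65 (SE 0.16, edgeR adjusted p = 0.0124). Its call was lost with total counts (log2 0.15, adjusted p = 0.489) and when mutant library 1, mutant library 2, wild-type library 2 or wild-type library 3 was left out (adjusted p = 0.0888, 0.0693, 0.0574 and 0.0835). The 2 lower with total counts were Eef1a1 and Pabpc1, the poly(A)-binding protein (log2 −0.73, adjusted p = 0.00518; −0.26 and 0.442 with TMM). Of 11 regulators of this class 3 were tested and 0 called, with Cnbp (log2 0.19) and Eif4ebp2 (0.10) the most abundant. Of 8 ribosomal protein paralogs 1 was tested, Rpl36al (log2 −0.29, edgeR adjusted p = 0.825). Of 10 entries for ribosome removal and surveillance 9 matched a gene, and 3 were tested and 0 called with TMM. With total counts Rnf10, a ubiquitin ligase of ribosomal proteins, was called lower (log2 −0.36, edgeR adjusted p = 0.0491), though above the median of −0.53 for all genes. With TMM it was at 0.14 (edgeR adjusted p = 0.748), so its sign depended on the scaling.

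Among the genes whose profile over the 6 libraries was nearest to the mean of the P-stalk genes were Oaz1 (place 1), Ube2l6 (place 2), Oaz1-ps (place 3) and Gnas (place 5). Likeness was the root mean square difference of centred log2 CPM with TMM, over 167 genes with a mean of at least 20 CPM. It was 0.051, 0.060, 0.062 and 0.093 for these 4, beside 0.020 to 0.033 for the P-stalk genes themselves and a median of 0.375. Oaz1, ornithine decarboxylase antizyme, had 426, 375 and 294 CPM in mutant mice, against 214, 236 and 204 in wild-type mice. Ube2l6, a conjugating enzyme for the ubiquitin-like ISG15, had a log2 fold change of 0.80 and Gnas, the stimulatory G protein alpha subunit, 0.69. Oaz1-ps is a copy of Oaz1, and their counts cannot be told apart with certainty. Among ribosomal protein genes in this comparison Rpl41 had place 13 and Rps9 place 39. The TMM factors are common to all profiles and take part in this likeness.

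Summed markers of other cells differed between the groups for several lists. Calls in these lists are with TMM, where 5.99% of all genes were called higher and 1.06% lower. Besides the hepatocyte list, of whose 25 tested members 22 were higher with TMM, the B cell list summed to 195 to 330 counts in mutant mice, against 352 to 910 in wild-type mice, with 0 of 9 tested members called. The T and NK cell list summed to 27 to 48 in mutant mice, against 77 to 171 in wild-type mice, and 2 of its 3 tested members were lower. The neutrophil and monocyte list had 1221 to 2351 counts in mutant mice, against 1943 to 2476 in wild-type mice, and the platelet list 84 to 212 in mutant mice, against 176 to 336 in wild-type mice. These ranges overlapped, and 0 of 8 and 0 of 6 tested members were called. Markers of immature reticulocytes and erythroblasts summed to 4717 to 5525 in mutant mice, against 6221 to 7949 in wild-type mice, and 1 of 8 tested was called. This was Cd24a, at 842, 880 and 1212 in mutant mice, against 1719, 2241 and 2467 counts in wild-type mice (log2 −0.63, edgeR adjusted p = 0.0284). The median of the 8 was close to that of all genes, −0.09 beside −0.06 with TMM and −0.56 beside −0.53 with total counts. Slc25a37, the member with most counts, was at 0.51 with TMM and −0.01 with total counts (edgeR adjusted p = 0.0691 and 0.948). Of each of these lists 0 members were at 0 in all libraries. With the hepatocyte and exocrine pancreas lists removed before scaling, Rplp0, Rplp1 and Rplp2 had log2 fold changes of 0.78, 0.84 and 0.82. The part of other cells in the P-stalk values was not tested.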

How the data were processed

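Polyadenylated RNA of purified erythrocytes was sequenced from 3 Nxf1+/C587R males and 3 wild-type littermates. The deposited values are raw counts per gene by Entrez number, with a gene length, per the file headers. CASAVA 1.8.2, Subread, featureCounts and mm10 are named in the submitters' processing notes. How strand and multi-mapped reads were treated is not given in the sources used here.

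Symbols came from RefSeq for 25275 of 27179 genes. edgeR 4.0.16 (R 4.3.3) was fitted on the whole table with a robust quasi-likelihood F test, TMM, filterByExpr, a single genotype term and Benjamini-Hochberg adjustment. The code was tested on simulated data. There it called 2% of genes changed 1.5-fold and 36% of those changed 2-fold, and 6.36% of its calls were false. A gene that was not called may thus still differ by such a fold. DESeq2 1.42.0, other scalings and filters, and leaving out each library were alternatives. Wilson intervals cover counting error only. The batch numbers equal the replicate numbers and pair the libraries by number only, since the labels state no such pairing. Same-batch libraries correlated at −0.116, −0.0855 and −0.0439 as deviations from group means. The P-stalk genes and all gene lists were chosen with earlier results of these data known. Named genes were the members, Nxf1, the 5 nearest profiles, other ribosomal protein genes called or with most counts, and called or most counted members of other lists. Some genes that this rule takes are not reported here. Rpl8, Rps3, Rps21 and Rpl12 were named after their values were seen, and the same holds for Mrto4 and Dusp12. No protein sequence and no Rplp1 promoter was used here.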

Additional observations from a re-analysis of the deposited data

How the results depend on the processing

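Log2 fold changes of Rplp0, Rplp1 and Rplp2 stayed above 0 under all alternatives, and moved beyond the spread between replicates with total counts (0.26, 0.32 and 0.30) and non-globin totals (0.32, 0.38 and 0.37), where 0 of the 3 were called. Without mutant library 3, Rplp0 (0.98) and Rplp2 (1.04) also moved beyond that spread, and Rplp1 was 1.07. All 3 were called with RLE factors, TMM without globin genes, DESeq2, a filter at a mean count of at least 50, no filter, and without the hepatocyte and pancreas lists. With the replicate block (batch as a term) they were 0.76, 0.82 and 0.80 and all 3 were called. The block gave 60 lower genes in place of 30 and changed no call of the 3.

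Genes called lower were 30, against 19 with RLE, 245 with total counts, 179 with non-globin totals, 19 with TMM without globin genes, 82 with no filter, 49 at a mean count of at least 50 and 11 with DESeq2. Genes called higher were 169, against 382 with no filter and 66 at a mean count of at least 50. Higher calls were 84.9% of all calls with TMM and 31.9% with total counts. The other ribosomal protein genes had a median of 0.17, against −0.33 with total counts, −0.26 with non-globin totals and −0.23 with no filter. With total counts and with non-globin totals 0 of them were higher and 1 was lower.

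Leaving out each library in turn gave log2 fold changes of 0.70 to 0.98 for Rplp0, 0.75 to 1.07 for Rplp1 and 0.75 to 1.04 for Rplp2, with 1 to 3 of them called. All genes called numbered 137 to 244 higher and 8 to 77 lower, and other ribosomal protein genes 1 to 5 higher and 0 to 2 lower, with a median of 0.11 to 0.28. The P-stalk share differed by 2.90 to 3.72 points, and by 9.25 points without Rpl41 in the denominator. The log2 level of Rplp1 over Rplp2 was 2.84 to 2.87, with p = 0.0625 in the exact permutation test, the smallest that 5 libraries allow, and 2.95 by coding length (GENCODE, since no protein table was used). The cause of these shifts was not tested.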
